A study of Mus musculus with 10 samples.

Results

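The long-read isoform catalogue of mature CD8 single-positive (CD8SP) thymocytes was set against the short-read expression values of the same cell type, gene by gene. Of the 10 samples in the series, 5 are CD8SP samples: 1 long-read library and 4 short-read samples whose labels differ by sequencing lane. The short-read file listed 23277 genes with a RefSeq transcript, and 7967 of them had a level of at least 1 FPKM and are called expressed here. FPKM corrects the number of sequenced fragments for the length of the transcript and the size of the library, and a gene's FPKM is the sum over its RefSeq transcripts. A gene counted as captured when the long-read table assigned it at least 1 isoform on its own strand, and 2819 of the 7967 expressed genes were captured.

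The study compared messenger RNA splicing between the CD4 and CD8 lineages of the thymus. All CD8SP samples came from C57BL/6 mice aged 6 to 8 weeks, with 2 or 3 thymi pooled for a sample and no genetic change or treatment named in the labels. Cells bearing CD4, double-positive cells among them, were depleted with magnetic beads, and a sorter then kept cells that were CD8+CD4-TCRβ+CD24-. Long-read libraries were made from amplified cDNA for PacBio sequencing, and short-read libraries were paired-end with ribosomal RNA depleted. Whether both kinds of library came from the same pool of thymi was not given in the sources used here. The 4 short-read lanes stand in 1 pooled file, so each gene had 1 short-read value and 1 long-read listing, no replicate existed, and no test was made.

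CD8SP thymocytes have passed positive selection on MHC class I and have silenced CD4. They carry the T cell receptor, the CD3 chains that signal for it and the CD8α and CD8β coreceptor chains, and they mature in the medulla before leaving for the blood. Long-read sequencing of cDNA reads whole transcripts from the 5′ end to the poly(A) tail, so 1 read can show how all exons of a molecule were joined. The cDNA is primed with oligo(dT), so an RNA without a poly(A) tail has no regular priming site, and a run of A inside an RNA can prime as well. Short-read libraries after ribosomal depletion do not depend on the tail.

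The long-read table held 9476 isoforms, of which 6834 were on the sense strand of a gene, 2198 were antisense to a gene and 444 lay between genes. The sense isoforms named 3606 genes, and 3291 of these had a RefSeq transcript in the short-read file. The table gives no full-length read counts, so how many reads stand behind an isoform is unknown, and each isoform counted once. The number of short reads was not given in the sources used here. The deposited FPKM lay outside its own deposited interval for 1586 of 14040 RefSeq transcripts above 0, so those intervals are an incomplete measure of error. Shares of genes below carry exact Clopper-Pearson 95% intervals, which cover counting error only, since genes are not replicates of the sample. Genes of multigene families, among them the histones, H2-K1 and H2-D1, and ribosomal protein genes with pseudogenes, share reads, and both their FPKM and their capture are uncertain.

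The markers of the labelled cell type were present. All 12 CD8SP markers were at 1 FPKM or more, with a lowest level of 6.42 FPKM for Runx3, the transcription factor that commits cells to the CD8 lineage, and a median of 98.8 FPKM. Cd8b1, the CD8β chain, stood at 464 FPKM and Cd8a, the CD8α chain, at 204 FPKM. Of 3 CD4SP markers, Cd4 was at 0.872 FPKM, Zbtb7b (the CD4 lineage factor ThPOK) at 0.0606 FPKM, and Cd40lg (CD40 ligand) was listed at 0. Of 6 double-positive markers, 3 reached 1 FPKM: Cd24a at 10.1, Dntt (terminal transferase) at 9.15 and Rag1 (the receptor recombinase) at 4.12 FPKM. Of the markers of other cells, 1 in each list reached 1 FPKM: Cd79b at 4.58 for B cells (1 of 7), Cd74 at 3.81 for myeloid and dendritic cells (1 of 12), Hbb-bs at 3.11 for erythroid cells (1 of 6) and Pecam1 at 14.8 for stroma (1 of 9). Summed over a list, the level was 1614 FPKM for CD8SP, 0.933 for CD4SP, 24.2 for double-positive, 4.72 for B cell, 5.63 for myeloid, 3.84 for erythroid and 14.8 for stromal markers. The defining genes Cd79a, Pax5, Epcam, Krt5 and Foxn1 were at 0.0239 FPKM or lower. In such a bulk sample, fewer cells of a type and less RNA per cell cannot be told apart. Of the 12 CD8SP markers 7 were captured by long reads, and Cd8a was not. Stromal Pecam1, which T cells also express, was captured, and no other marker outside the CD8SP list was.

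The most abundant coding genes of CD8SP cells encoded the light chain of MHC class I, the actin cytoskeleton and the translation machinery. B2m (β2-microglobulin, chr2:122147687-122153082 on GRCm38) was highest at 2505 FPKM and Actb (β-actin, chr5:142903116-142906724) followed at 2175 FPKM. Below them came Eef1a1 (a translation elongation factor) at 955, Cd52 (a small GPI-anchored surface protein) at 855, Tmsb4x (thymosin β4, which binds actin monomers) at 842 and Pfn1 (profilin, an actin monomer binder) at 687 FPKM. Of the 25 most abundant coding genes 16 were captured, 15 of them by an isoform with several exons and 11 by a full splice match. A full splice match is an isoform that has every junction of an annotated transcript, or a single-exon isoform assigned to a single-exon transcript. The 25 genes fell apart by kind: 0 of 3 histone genes, 4 of 8 ribosomal protein genes and 12 of the other 14 were captured.

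The isoforms of these genes differed in how much of the transcript they held. Actb had 4 sense isoforms, the longest full match of 1886 bases over 6 exons, beside a most abundant RefSeq transcript of 1889 bases. Tmsb4x and Pfn1 each had 1 isoform, a full splice match with 3 exons of 607 and 637 bases. Hsp90ab1 (the chaperone HSP90β, 319 FPKM) had 1 full match of 2485 bases over 11 exons. Each of these genes had at least 1 isoform with every junction of an annotated transcript, and Actb had 2. B2m, the most abundant of all, had only 1 incomplete isoform of 494 bases whose 5′ end lay 3433 bases from the nearest annotated start of the gene. Its 3′ end lay 1 base from the nearest annotated end of the gene, and 85% of the genomic bases after that end were A. Rpl8 (276 bases, 2 exons) and Rpl41 (269 bases, 1 exon), ribosomal proteins at 567 and 623 FPKM, were also represented by fragments. Rplp1, the ribosomal stalk protein at 534 FPKM, had a full match of 393 bases. Eef2 (elongation factor 2, 371 FPKM) had 3 multi-exon isoforms and no full match, the largest with 13 exons.

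**Figure D1:**
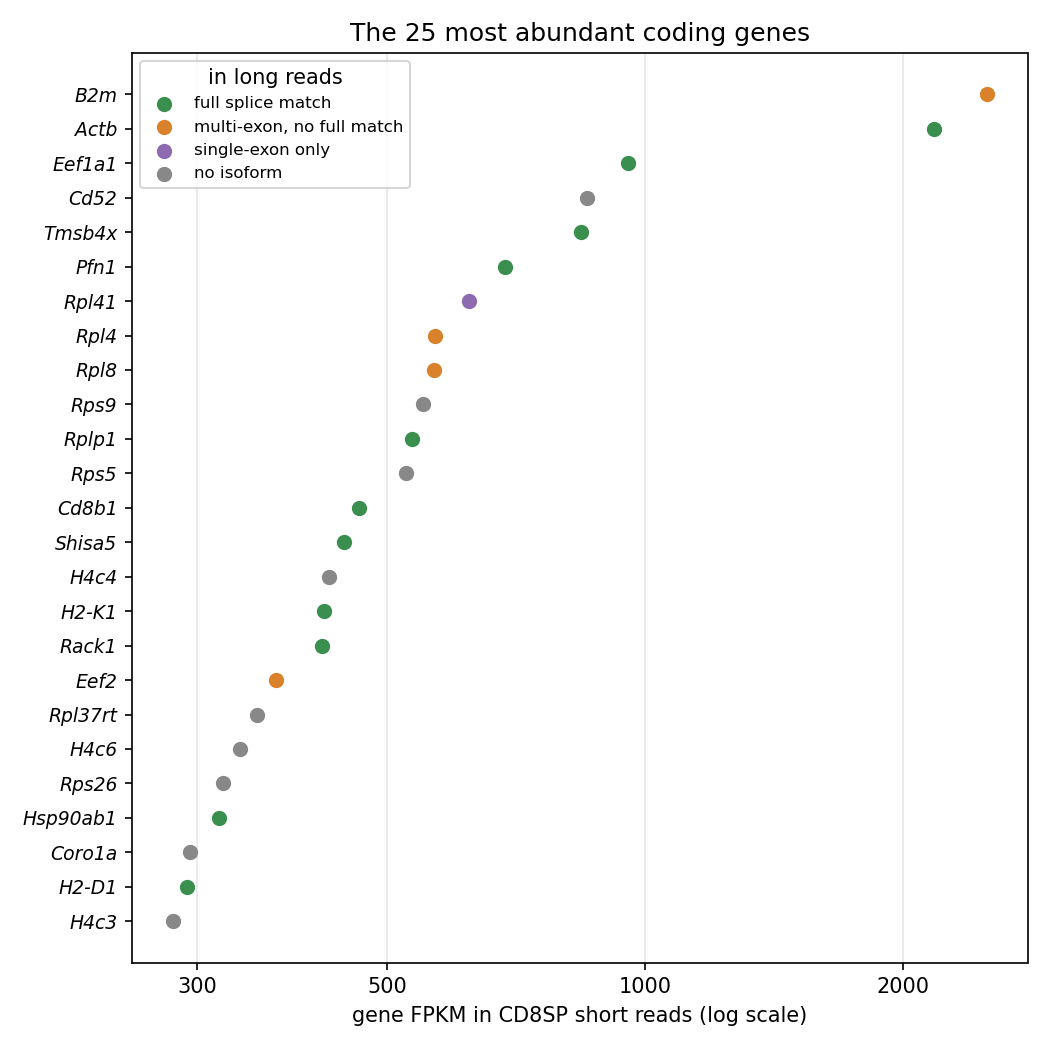
Gene FPKM (log scale) of the 25 most abundant coding genes of CD8SP short reads, coloured by the best isoform in the long-read table. The 9 grey points, genes with no isoform, are 3 histone H4 genes, 4 ribosomal protein genes, Cd52 and Coro1a.

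Abundant genes with no sense isoform included several that define or serve T cells. Cd52 at 855 FPKM was the highest coding gene without one. Outside the histones and ribosomal proteins it was followed by Coro1a (coronin 1A, an actin regulator of leukocytes) at 295, Ptprcap (a CD45-associated protein) at 205, Cd8a at 204, Sh3bgrl3 at 173 and Nkg7 (a cytotoxic granule protein) at 170 FPKM. Further down were Ltb (lymphotoxin β) at 153, Rac2 (a small GTPase of leukocytes) at 134, Mcl1 (a survival factor) at 125 and Lat (the scaffold of T cell receptor signalling) at 118 FPKM. Sh3bgrl3, Ltb and Mcl1 were chosen after their values were seen. Length was not uniform among them: the most abundant RefSeq transcript measured 503 bases for Cd52 and 846 for Ptprcap, but 3130 for Cd8a and 3036 for Rac2. Among the 100 most abundant coding genes, which reach down to 107 FPKM, 56 were captured: 0 of 13 histones, 7 of 16 ribosomal proteins and 49 of 71 others.

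The annotated 3′ ends of captured and uncaptured genes are shown because a long-read cDNA starts at the poly(A) tail. Each line gives 30 bases of a GENCODE M21 transcript (GRCm38), sense strand, with capitals marking a polyadenylation hexamer (AATAAA or ATTAAA) in the last 60 bases. The first trio was captured by a full splice match and the second trio was not captured.
Eef1a1, chr9, minus strand: accATTAAAacaagtttaatgagaaatctg
Tmsb4x, chrX, minus strand: ttaatatgcaAATAAAgttttaaaacctga
Hsp90ab1, chr17, minus strand: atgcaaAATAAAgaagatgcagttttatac
Cd52, chr4, minus strand: gggcacAATAAAgttatacttatgcttaga
Coro1a, chr7, minus strand: aaatAATAAAacggctttattttctggtac
Rps9, chr7, plus strand: gctgaaaAATAAAaaagaattgatacttgg

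The 6 genes were picked among those whose hexamer lies in the 30 bases shown. Over the expressed coding genes with a GENCODE sequence, 80.2% of 7750 had AATAAA or ATTAAA in the last 60 bases, with 80.9% of 2776 captured and 79.9% of 4974 uncaptured genes. At 100 FPKM or more the hexamer was present in 57 of 63 captured genes and in 28 of 31 uncaptured genes other than histones. The search was added after the values had been seen, it read the sense strand only, and a hexamer in this window is a description of the letters.

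None of the replication-dependent histones was captured. They package newly copied DNA, and their messages end in a stem-loop and not in a poly(A) tail. Expressed histone genes numbered 51, with a median of 54.8 FPKM, and 0 of them had a sense isoform, with an exact interval from 0 to 6.98%, against 35.4% of all expressed genes. Of genes with 1 exon at 10 FPKM or more, histones among them, 8.8% of 114 were captured. The next lines show 5 of those in which the stem-loop was found, with capitals on its core (TTTTNAGNGCC, where N is any base). In H4c6 and H2bc3 the core lies 33 and 23 bases before the annotated transcript end, whereas for H4c4, H4c3 and H4c14 the GENCODE transcript goes on for 770, 454 and 1257 bases after the core.
H4c4, chr13, plus strand: caaaggcccTTTTCAGGGCCactaccttct
H4c6, chr13, minus strand: caaaggcccTTTTCAGGGCCacccactttg
H4c3, chr13, minus strand: aaaaggcccTTTTCAGGGCCacccacaaat
H2bc3, chr13, plus strand: caaaggctcTTTTAAGAGCCacccacactt
H4c14, chr3, minus strand: taacggcccTTTTTAGGGCCaaccacagtc

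These 5 genes stood at 428 FPKM (H4c4), 337 (H4c6), 281 (H4c3), 253 (H2bc3) and 187 (H4c14). The core occurred on the sense strand somewhere in the transcript of 29 of 51 expressed histone genes, and in 137 of 7750 expressed coding genes (1.77%). A hexamer in the last 60 bases was found for 12 of the 51 histone genes (23.5%). Whether the end of a message sets its capture was not tested.

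Capture followed expression level up to about 100 FPKM. Over all 23277 listed genes 14.1% were captured (3291), 7.10% by a multi-exon isoform (1653) and 2.20% by a full splice match (513). Of the expressed genes 35.4% were captured (2819 of 7967), 18.9% by a multi-exon isoform (1505) and 5.90% by a full splice match (470). The share captured was 20.9% at 1 to 2 FPKM, 27.2% at 2 to 5, 36.6% at 5 to 10, 44.3% at 10 to 20 and 54.4% at 20 to 50 FPKM. It was highest at 50 to 100 FPKM, with 62.8% of 191 genes (interval 55.6 to 69.7). Above that it was 55.3% of 76 genes at 100 to 200 FPKM and 44.2% of 52 genes at 200 FPKM or more, with wide intervals (43.4 to 66.7 and 30.5 to 58.7). Full splice matches kept another course, from 2.5% of genes at 1 to 2 FPKM to 18.8% at 50 to 100 and 26.9% at 200 FPKM or more. Multi-exon full matches alone were at 17.3% of genes at 50 to 100, 22.4% at 100 to 200 and 21.2% at 200 FPKM or more. Among all genes at 100 FPKM or more, 50.8% were captured (65 of 128), 41.4% by several exons (53) and 24.2% by a full match (31).

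**Figure D2:**
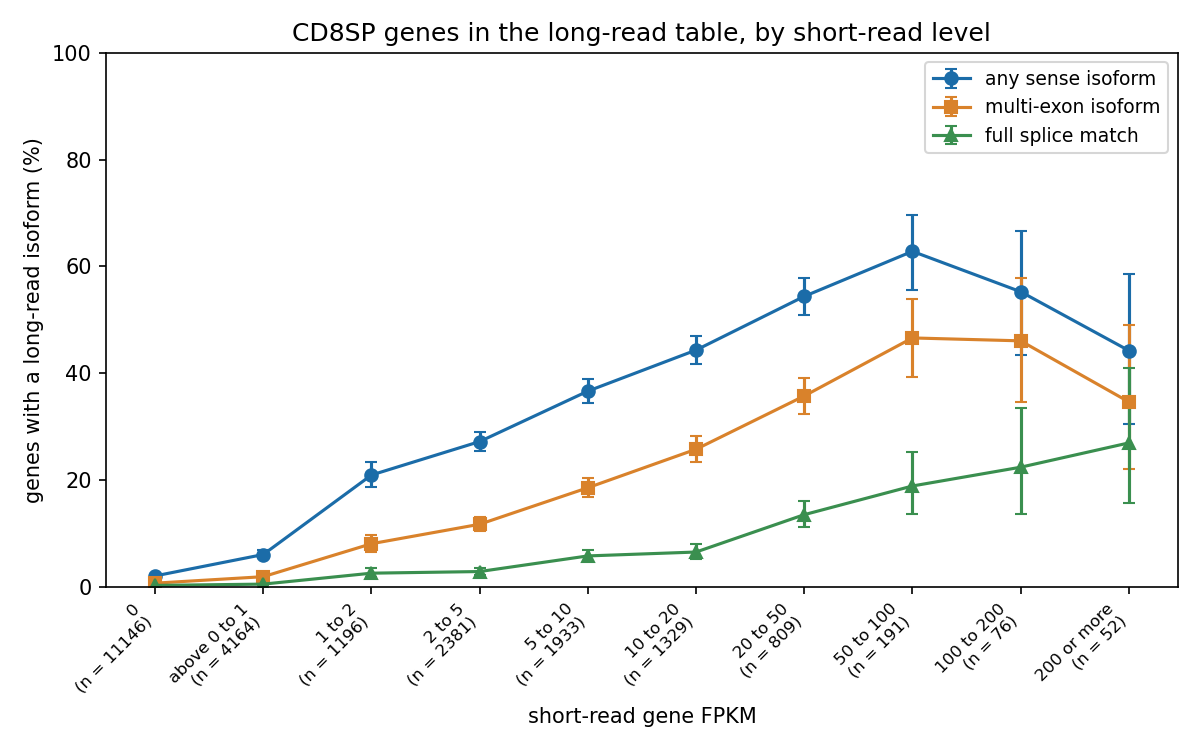
Percent of genes with a long-read isoform against gene FPKM in bins, with exact 95% intervals, for any sense isoform, a multi-exon isoform and a full splice match. Capture of any kind is highest at 50 to 100 FPKM (62.8%) and is 44.2% at 200 FPKM or more, while full matches are at 26.9% there.

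Read as a share of expression, the captured genes carried 52.8% of the summed FPKM of expressed coding genes, and those with a full match carried 17.1%. For the expressed non-coding genes the captured share of summed FPKM was 3.33%, most of the sum being Rpph1 and Rmrp, and 21.7% without those 2 genes. At the other end, 222 of 11146 genes listed at 0 FPKM were captured (2.0%). Of the genes at 0, 421 reached 1 FPKM once assembled transcripts sharing their introns were added. Of these 421 genes 92 (21.9%) were captured, against 130 of the other 10725 (1.21%). The 421 genes also had longer transcripts (median 2711 against 1509 bases) and wider spans (median 25472 against 8898 bases). Whether a listing at 0 reflects an estimate that failed was not tested. Prf1 (perforin, the pore-forming protein of killer cells) was among the 92 captured genes. It was listed at 0 FPKM from RefSeq transcripts and at 11.3 FPKM with assembled ones, and it had 1 isoform of 2620 bases over 3 exons.

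Capture also differed with transcript length. At 10 FPKM or more 49.4% of 2457 genes were captured, 31.5% by several exons and 10.7% by a full match. By length of the most abundant RefSeq transcript, the captured share was 14.3% of 105 genes under 500 bases, 18.1% of 293 at 500 to 1000, 29.9% of 288 at 1000 to 1500 and 46.4% of 330 at 1500 to 2000 bases. It was 52.7% of 560 genes at 2 to 3 kb, 64.4% of 354 at 3 to 4 kb, 68.9% of 347 at 4 to 6 kb and 80.6% of 180 genes at 6 kb or more. Capture by a multi-exon isoform went from 5.7% under 500 bases to 39.1% at 2 to 3 kb and differed little above that, with 41.8%, 38.0% and 44.4% in the 3 longer classes. Genes with transcripts under 1 kb were thus captured in 17.1% of 398 cases (13.5 to 21.2) and those of 2 to 4 kb in 57.2% of 914 (53.9 to 60.5), intervals that did not overlap. Full splice matches were most frequent at 1500 to 2000 bases (14.8%) and at 2 to 3 kb (15%), and stood at 8.3% at 6 kb or more. At 1 to 10 FPKM the captured share likewise went from 10.3% at 500 to 1000 bases to 54.8% at 6 kb or more.

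**Figure D3:**
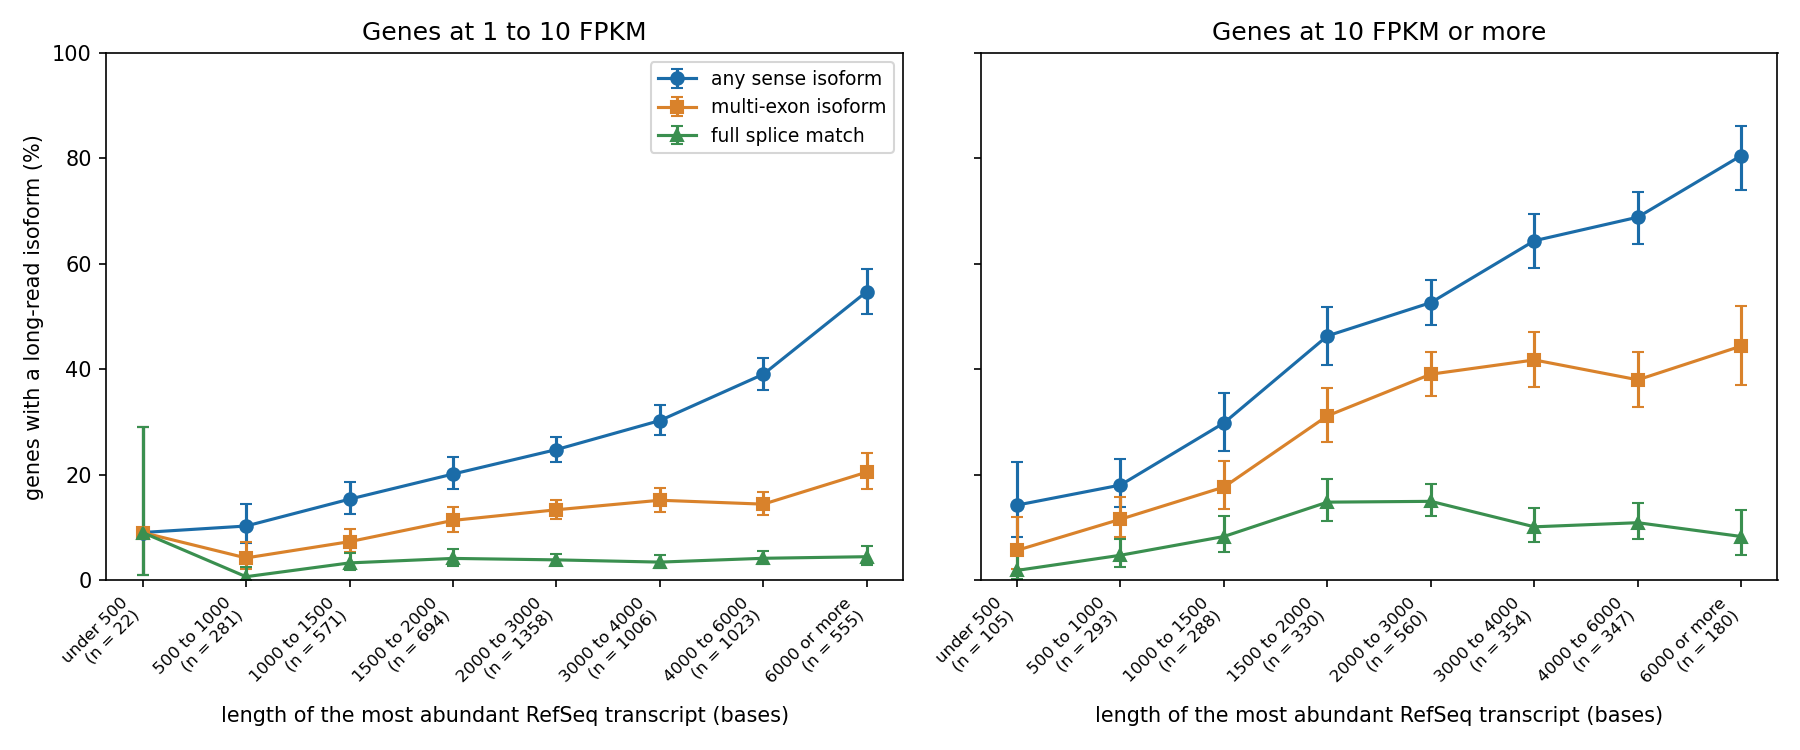
Percent of genes with a long-read isoform against the length of the most abundant RefSeq transcript, for genes at 1 to 10 FPKM (left) and at 10 FPKM or more (right), with exact 95% intervals. At 10 FPKM or more the share with any isoform goes from 14.3% under 500 bases to 80.6% at 6 kb or more, whereas full matches are highest at 2 to 3 kb (15%).

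The most abundant genes differed in capture by length as well. At 50 FPKM or more, a split added after the values were seen, 22 of 111 genes under 1 kb were captured (19.8%), against 63 of 90 at 1 to 2 kb (70.0%), 76 of 90 at 2 to 4 kb (84.4%) and 24 of 28 at 4 kb or more (85.7%). Tmsb4x (670 bases), Pfn1 (870 bases) and Rplp1 (468 bases) belonged to the short captured genes, and Cd8a and Rac2 to the uncaptured ones of 2 to 4 kb.

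Length, exon number and genomic span of a gene go together, and capture differed along each. At 10 FPKM or more the captured share was 12.1% of genes spanning under 3 kb, 34.6% at 3 to 10 kb, 50.4% at 10 to 30 kb, 68.0% at 30 to 100 kb and 81.9% at 100 kb or more. With multi-exon isoforms only, the last 3 shares were 35.7%, 38.9% and 46.3%. By exons of the RefSeq transcript it was 8.8% for 1 exon, 31.3% for 2 to 4, 44.1% for 5 to 9, 61.4% for 10 to 19 and 75.0% for 20 or more. Within genes spanning 10 to 30 kb, the share was 27.7% at 500 to 1000 bases, 57.8% at 2 to 3 kb and 49.4% at 4 to 6 kb. Among transcripts of 2 to 3 kb it was 35.5% for spans of 3 to 10 kb, 57.8% at 10 to 30 kb and 57.1% at 30 to 100 kb. These span and exon splits were added after the values were seen.

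A captured gene was not necessarily captured whole. Of the 6834 sense isoforms 37.5% measured 2 to 3 kb and 24.5% measured 3 to 4 kb, 89 were under 500 bases and 9 reached 6 kb. For captured genes at 10 FPKM or more the longest isoform was 90% or more of the RefSeq length in 557 of 1214 genes (45.9%). The median was 99.7% of the RefSeq length for transcripts of 2 to 3 kb, 84.6% at 3 to 4 kb, 64.5% at 4 to 6 kb and 39.8% at 6 kb or more. For transcripts under 500 bases it was 444.9% (15 genes), as the median longest isoform there measured 2122 bases. With multi-exon isoforms only it was 72.4% there (6 genes), and 93.1% at 500 to 1000 bases. Captured short genes thus often carried an isoform far longer than the RefSeq transcript only when single-exon isoforms were counted. Snhg1, a host gene of small nucleolar RNAs with a RefSeq transcript of 476 bases, had a single-exon isoform of 2950 bases.

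Multi-exon full splice matches numbered 487 isoforms of 389 expressed genes, with a median of 2414 bases and 6 exons. The match paired with a RefSeq transcript for 244 genes, and for 220 of them (90.2%) that was the RefSeq transcript with the highest FPKM of the gene. Genes with no other RefSeq transcript were not set apart, and for them this outcome is fixed in advance. Such genes are common, as the short-read file held 30552 matched RefSeq transcripts for 23277 genes. The 90.2% therefore cannot show whether long and short reads pick the same main transcript, which was not tested. The longest was Atp8b4 (a phospholipid flippase, 14.2 FPKM) with 5632 bases over 28 exons, and the one with most exons was Clasp1 (a microtubule plus-end protein, 4.80 FPKM) with 37 exons in 5477 bases. At the short end were Rack1 (a ribosome-bound scaffold protein, 419 FPKM), with a 2-exon match of 217 bases beside an 8-exon match of 1112 bases, and Tmsb10 (thymosin β10, 101 FPKM), with 333 bases. A full match to a short annotated fragment counts as one, as the 2-exon isoform of Rack1 shows.

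Full matches also occurred at very low short-read levels. Igf1r (the IGF-1 receptor) stood at 0.617 FPKM and had a 21-exon match of 4718 bases. Pask (a PAS domain kinase) was at 0.430, Mlkl (the effector of necroptosis) at 0.104 and Sarm1 (an NADase) at 0.0876 FPKM, each with 1 full match. The lowest was Pygm (muscle glycogen phosphorylase) at 0.0415 FPKM from RefSeq transcripts and 2.28 FPKM with assembled ones, and its match had 3 exons against 20 in the RefSeq transcript.

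The list of T cell receptor complex and coreceptor genes also held other surface proteins of T cells, such as Cd2, Cd52 and Ptprc. Of its 17 genes, all at 10 FPKM or more, 12 were captured (70.6%, 44.0 to 89.7). That interval holds the 49.4% of all genes at that level. Cd8b1 (chr6:71322812-71337451) had 2 isoforms, one of them a full match with 6 exons and 1450 bases. Its neighbour Cd8a (chr6:71373427-71379171) had no isoform on either strand. Ptprc, the phosphatase CD45 known for its variable exons, had 7 isoforms at 233 FPKM, with up to 31 exons and 4885 bases, and no multi-exon full match. Of the CD3 chains, Cd3e (152 FPKM) had 3 multi-exon isoforms with 1 full match and Cd3d (104 FPKM) had 2 with 1 full match. The Cd3e match, of 4 exons and 2971 bases, was labelled non-coding. The Cd3d match, of 2 exons and 2603 bases, began 1858 bases from the nearest annotated start of the gene. Cd3g at 248 FPKM had only a single-exon isoform of 218 bases. Cd247, the ζ chain at 93.4 FPKM, had 5 isoforms, all single-exon. Cd2 (an adhesion receptor, 138 FPKM) had 1 full match, and Thy1 (154 FPKM) and Cd6 (33.1 FPKM) had 1 incomplete multi-exon isoform each. Cd7 (79.9), Cd48 (40.8) and Cd5 (40.2 FPKM), all surface receptors of T cells, had none, and neither had Cd52.

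Of the genes of the CD8 lineage and cytotoxic programme 4 of 11 at 10 FPKM or more were captured (36.4%, 10.9 to 69.2), an interval that holds the 49.4% of all genes at that level. Captured were Cd8b1, Ccr9 (a chemokine receptor for the gut and thymus, 74.6 FPKM), Itgae (the integrin CD103, 47.7 FPKM) and Il2rb (the IL-2 receptor β chain, 10.3 FPKM). Itgae had an incomplete isoform of 20 exons, and the isoforms of Ccr9 and Il2rb were single-exon. The uncaptured genes were Cd8a, Nkg7, Ctsw (a cathepsin of killer cells, 76.8), Cst7 (27.5), Klrd1 (CD94, 24.7), Xcl1 (a chemokine, 22.2) and Dapl1 (12.99 FPKM), 5 of them with transcripts under 1 kb, a length at which 17.1% of all genes were captured. Below 10 FPKM, Runx3 at 6.42 FPKM had 7 multi-exon isoforms, 3 of them full matches and the longest 3594 bases. Eomes, Gzma, Ccl5, Crtam and Cxcr3, at 1.14 to 4.30 FPKM, had none.

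Signalling and transcription factor genes stood at the upper end of capture at 10 FPKM or more, where 49.4% of all genes were captured. For T cell receptor signalling it was 18 of 21 genes (85.7%, 63.7 to 97.0), 14 of them by several exons. The median length of these 21 genes was 2728 bases, and 52.7% of all genes of 2 to 3 kb were captured. Lck, the kinase that starts the signal, had 7 isoforms at 120 FPKM, among them a 13-exon full match of 2088 bases. Ptpn6 (the phosphatase SHP-1, 64.7 FPKM) had 7 as well, with no full match. The uncaptured genes were Lat (118 FPKM), Sla (25.1 FPKM), which lowers receptor levels, and Bcl10 (11.7 FPKM), of the NF-κB branch. Of 22 T cell transcription factors 19 were captured (86.4%, 65.1 to 97.1), 11 by several exons. Lef1 (143 FPKM) had a 12-exon full match and Satb1 (a chromatin organiser of thymocytes, 93.8 FPKM) had 8 isoforms with 1 full match of 11 exons. Ets1, the highest of the list at 163 FPKM, had 2 single-exon isoforms. Cbfb (the partner of RUNX factors, 64.5), Klf2 (a regulator of thymic egress, 41.6) and Id3 (32.5 FPKM) had none.

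Of the maturation, egress and homing genes at 10 FPKM or more 9 of 21 were captured (42.9%, 21.8 to 66.0), near the 49.4% of all genes at that level. Ly6e (151 FPKM), Gimap6 (132 FPKM) and Ms4a4b (112 FPKM) had full matches. Gimap4 (130) and Ccr7 (a receptor for lymph node entry, 77.7 FPKM) had no isoform, at transcript lengths of 1810 and 1975 bases. Of the MHC class I and peptide loading genes 11 of 18 were captured (61.1%, 35.8 to 82.7), with 22 isoforms for H2-K1 (422 FPKM) and 5 for H2-D1 (292 FPKM). Pdia3 (46.4), Tap1 (a peptide transporter, 36.0) and H2-Q7 (34.2 FPKM) were not.

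Housekeeping and regulatory classes differed widely at 10 FPKM or more, where 49.4% of all genes were captured. Chromatin regulators, with a median length of 4240 bases, were captured in 16 of 17 genes, with Eed of the Polycomb complex the exception (13.3 FPKM). Glycolysis genes were captured in 5 of 6 (35.9 to 99.6) and translation factors in 14 of 20 (70.0%, 45.7 to 88.1). Cell cycle genes were captured in 8 of 14 (57.1%, 28.9 to 82.3). Each of these intervals holds the 49.4% of all genes. Actin and motility genes were captured in 25 of 31 (80.6%, 62.5 to 92.5). For splicing regulators it was 31 of 40 (77.5%, 61.5 to 89.2). Mbnl1, a splicing factor at 164 FPKM, had 19 isoforms, whereas Srsf1 (62.9), Hnrnpm (58.1) and Ptbp1 (56.8 FPKM) had none. Cytosolic ribosomal proteins, with a median of 725 bases, were captured in 19 of 52 (36.5%, 23.6 to 51.0), each with exactly 1 isoform. That interval also holds the 49.4%. Ribosomal proteins under 1 kb were captured in 11 of 38 (28.9%, 15.4 to 45.9), beside 17.1% of all genes that short. Respiratory chain subunits had 19 of 58 (32.8%, 10 by several exons): Atp5a1 at 160 FPKM was captured, and Cox6b1 (125) and Cox8a (124 FPKM) were not. Proteasome subunits had 8 of 31 (25.8%, 11.9 to 44.6) at a median length of 1255 bases. This was near the 29.9% of all genes at 1000 to 1500 bases. Coding genes under 1 kb without the histones were captured in 63 of 315. These lists differ in level, length and span at once, and the part of each in their capture was not tested.

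**Figure D4:**
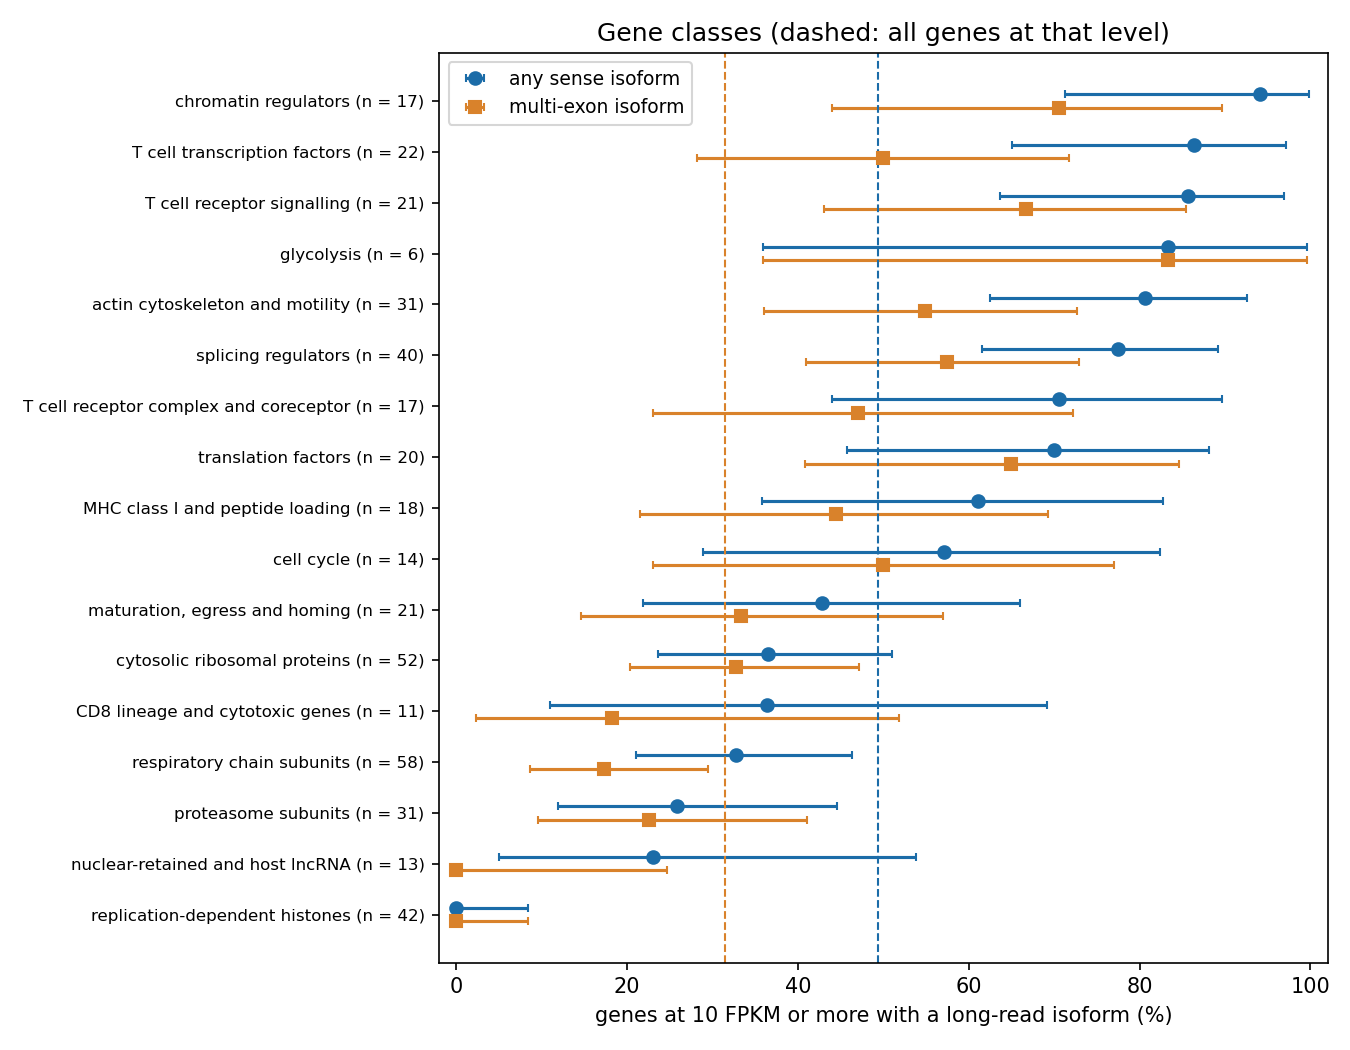
Percent of genes at 10 FPKM or more with any sense isoform and with a multi-exon isoform, for each gene class, with exact 95% intervals. The dashed lines mark all genes at that level (49.4% and 31.5%). Chromatin regulators (16 of 17) stand at the top and histones (0 of 42) at the bottom.

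Non-coding genes held the highest FPKM values, and few of them were captured. At 10 FPKM or more it was 11 of 63 (17.5%, 9.1 to 29.1), 2 of them by several exons, against 49.4% of all genes. These 63 genes had a median length of 439 bases. Their 17.5% was near the 14.3% of all genes under 500 bases at that level and the 17.1% under 1 kb. The highest non-coding genes were Rpph1 (the RNA of RNase P) at 41987 FPKM and Rmrp (the RNA of RNase MRP) at 13773 FPKM, neither with an isoform. The value of Rpph1 lay far outside its deposited interval of 22316 to 22459 FPKM, and that of the microRNA gene Mir682 (710 FPKM) outside 2.3 to 6.0 FPKM, so FPKM of such short RNAs is uncertain. Small nuclear RNAs of the minor spliceosome (Rnu12 at 1065 and Rnu11 at 464 FPKM) had no isoform either. Of 17 small nucleolar and Cajal body RNAs, 1 was captured: Snord17 (889 FPKM), an RNA of 221 bases, received a single-exon isoform of 2163 bases that began before the gene and ran past it. It is a full splice match by category only.

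Long non-coding RNAs at 10 FPKM or more were captured in 9 of 23 (39.1%, 19.7 to 61.5), 2 of them by several exons. That interval holds the 49.4% of all genes at that level. At 1 FPKM or more 17 of 90 were captured (18.9%), against 35.4% of all expressed genes. Malat1, a nuclear RNA with a RefSeq length of 6982 bases, stood at 1104 FPKM and had 2 single-exon isoforms of 867 and 720 bases, both with 60% A after the 3′ end. Tug1 (27.3 FPKM), chosen like the next gene after its values were seen, had 8 isoforms, 7 of them multi-exon, with up to 5113 bases. AI662270 (38.4 FPKM) had 3 multi-exon isoforms. Gas5, a host of small nucleolar RNAs at 40.6 FPKM, had none.

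The form of the isoforms changed with the level of their gene. Single-exon isoforms made up 68.7% of the 348 isoforms of genes at 0 FPKM, 54.6% of 1374 at 5 to 10 FPKM and 16.2% of 68 at 200 FPKM or more. Isoforms with at least 60% A in the 20 genomic bases after the 3′ end went from 62.6% to 19.1% over the same bins, and those ending within 100 bases of an annotated end of the gene from 35.6% to 73.5%. Both features went together: 72.7% of 3711 single-exon isoforms had 60% A or more, against 17.2% of 3123 multi-exon ones. Of the 3764 isoforms ending farther than 100 bases from any such end 73.9% had it, against 14.9% of the 3070 ending nearer. Over all sense isoforms 54.3% were single-exon, 47.4% had 60% A or more and 8.2% had both ends within 100 bases of annotated ones. Priming inside A-rich stretches was not tested.

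**Figure D5:**
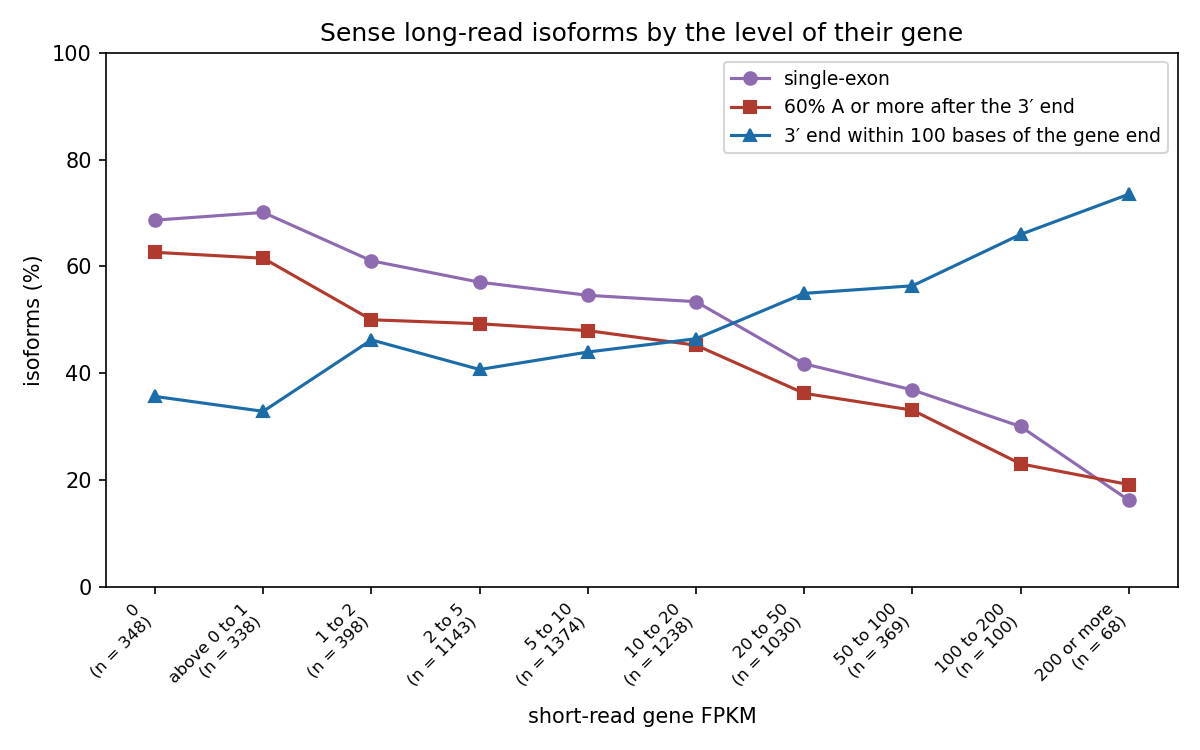
Percent of sense isoforms that are single-exon, have 60% A or more in the genome after the 3′ end, or end within 100 bases of the gene end, against the FPKM bin of their gene. The first 2 shares go from 68.7% and 62.6% at 0 FPKM to 16.2% and 19.1% at 200 FPKM or more, and the last from 35.6% to 73.5%.

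Captured genes at higher levels had more isoforms on average, from 1.59 at 1 to 2 FPKM to 2.34 at 20 to 50 and 3.08 at 50 to 100 FPKM, with 2.38 at 100 to 200 and 2.96 at 200 FPKM or more. The genes with the most isoforms were mostly not the most abundant. Arhgef1 (a guanine nucleotide exchange factor, chr7:24902986-24926591) had the most, 44 sense isoforms at 39.9 FPKM, 43 of them multi-exon and none a full splice match. Ppp2r5c (a PP2A regulatory subunit, 29.97 FPKM) had 25, of which 12 were full matches. H2-K1 had 22 and Psap (a lysosomal protein precursor, 64.0 FPKM) had 20. Foxp1, a transcription factor that keeps T cells quiescent, had 17 at 19.03 FPKM, of which 4 were multi-exon, whereas Hnrnpl (24.7 FPKM) had 17 with 16 multi-exon. A high count thus stood for many multi-exon forms in some genes and for many single-exon pieces in others. Most multi-exon isoforms of Arhgef1, Psap and Hnrnpl, but few of Ppp2r5c, were labelled as retaining an intron. Several isoforms of Arhgef1 also had a non-canonical junction. Of the genes at 500 FPKM or more none had over 4 isoforms, Actb with its 4 being the highest.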

How the data were processed

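CD8SP data only were used: 1 long-read table and 1 short-read file pooling 4 lanes. The CD4SP files and the table chained over both lineages were not used here. Per the file headers, the authors' short-read file was written by Cufflinks and gives FPKM with an interval per RefSeq or assembled transcript. The deposited long-read table gives each isoform's category, exons, length and percent A over the 20 genomic bases that follow its 3′ end. Per the submitters' processing notes, tools were Cufflinks 2.1.1, TopHat2 2.0.14, RSEM 1.3.1, Trimmomatic, FastQC and GSNAP on GRCm38, with no role given.

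RefSeq identifiers were matched to genes through the RefSeq gene table and GENCODE M21 on GRCm38, which also gave positions and 3′ ends (30552 of 30589 transcripts matched). Shared introns helped to place some RefSeq identifiers. Symbols of the long-read table were matched by name or synonym. A name that joins several genes counted for each of them, so overlapping genes may take another's isoform. Of 6406 matched isoforms 6404 lay on the gene's chromosome. Expressed meant at least 1 FPKM. Coding meant any NM_ transcript. Intervals are exact Clopper-Pearson (Python 3.11.15, pandas 2.3.3, scipy 1.17.1). The FPKM bins and the shares with their intervals were tested on simulated data, and the parsing and gene matching were not. 59 alternative values of 6 results were computed, over the FPKM minimum, assembled transcripts, isoform categories, A content and antisense isoforms.

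The named genes were the 25 most abundant coding genes, the 20 most abundant uncaptured coding and 12 most abundant non-coding genes, the 12 with most isoforms, the 10 of lowest FPKM with a multi-exon full match, the 5 longest and 5 shortest such matches, the 3 highest captured and uncaptured genes per class, and all T cell receptor complex, CD8 lineage and marker genes. The comparison, the lists and this rule were chosen with earlier results of these data known. Some genes that the rule names are not reported here.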

Additional observations from a re-analysis of the deposited data

Results flagged for a closer look

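Isoforms on the opposite strand lie outside the comparison of sense isoforms. Of the 5148 expressed genes with no sense isoform, 225 had at least 1 antisense isoform in the long-read table. They are counted as uncaptured throughout.

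The long-read table also named 315 genes with no RefSeq transcript in the short-read file, so no FPKM could be set beside them. They held 436 isoforms, 106 of them multi-exon. Clone-type names made up 271 of the 315 genes, and 6 were mitochondrial. AC149090.1 had 24 multi-exon isoforms, Rnf213 (a large ubiquitin ligase) had 9 isoforms with 6 multi-exon, and the mitochondrial ribosomal RNA mt-Rnr2 had 5, all single-exon. These 3 genes were chosen after their values were seen.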

How the results depend on the processing

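With 1 long-read library and 1 pooled short-read file, leaving out a replicate was not possible. No paired analysis was possible because the lanes are pooled in 1 file and carry no value of their own. Of 59 alternative values 34 stayed within the interval of the reported one and 25 moved beyond it. The share of expressed genes captured, 35.4%, was 33.8% with a minimum of 0.5 FPKM, 43.8% with 5 FPKM and 14.1% over all listed genes. It was 33.3% with assembled transcripts added, 20.8% with full and incomplete matches only, 18.9% with multi-exon isoforms only, 24.1% without isoforms at 60% A or more and 38.2% with antisense isoforms. At 100 FPKM or more, 50.8% became 41.4% with multi-exon isoforms only. For transcripts under 1 kb, 17.1% became 2.73% with no minimum, 9.80% with full and incomplete matches and 10.1% with multi-exon isoforms. For 2 to 4 kb, 57.2% became 46.4% at 5 FPKM, 70.1% at 20 FPKM, 16.8% with no minimum, 51.8% with assembled transcripts, 41.4% with full and incomplete matches, 40.2% with multi-exon isoforms and 48.7% without A-rich ends. For non-coding genes, 17.5% became 2.07% with no minimum and 3.17% with multi-exon isoforms. The share of captured genes with a full match, 16.7%, became 19.4% at 5 FPKM, 28.4% among full and incomplete matches, 25.8% among multi-exon isoforms and 19.3% without A-rich ends. The lower share for transcripts under 1 kb than for 2 to 4 kb held under each of these settings. The 100 FPKM class has no other minimum, since the minimum defines it. Unknown depth limits every statement on an uncaptured gene: no isoform listed does not show that the RNA lacks one.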
